A study of Mus musculus with 6 samples.

Results

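The D-type cyclins, the kinases they activate, the inhibitors of those kinases and the retinoblastoma protein control the passage of a cell from G1 into S phase. They are represented by 10 genes, chosen by name: the cyclins Ccnd1, Ccnd2 and Ccnd3, the kinases Cdk4 and Cdk6, the inhibitors Cdkn1a, Cdkn1b, Cdkn2c and Cdkn2d, and Rb1. Of these, 9 had 10 probe sets of their own, among 19938 genes tested. The 1 probe set of Cdkn1a, the p21 gene, also carries the symbol of another gene, so Cdkn1a has no value here. Ccnd2, the gene of cyclin D2, measured higher on all 3 RANKL-deficient arrays than on any control array, by a log2 difference of 1.06, but did not pass the adjusted threshold.

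D-type cyclins bind CDK4 and CDK6, and the active kinases phosphorylate the retinoblastoma protein, which then releases E2F transcription factors to switch on genes of DNA replication. The INK4 inhibitors, among them the products of Cdkn2c (p18) and Cdkn2d (p19), bind the kinases and displace the cyclin. The CIP/KIP inhibitors p21 and p27 bind the cyclin-kinase complexes. In lymphocytes, cyclins D2 and D3 are the usual D-type cyclins, and cytokine and antigen receptor signals raise them.

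RNA came from CCR6+ group 3 innate lymphoid cells (ILC3s), a subset related to lymphoid tissue inducer cells, sorted from the lamina propria of the small intestine of adult C57BL/6 mice and not cultured. The control group was Tnfsf11fl/fl, with floxed alleles of the RANKL gene and no Cre named (3 arrays). The RANKL-deficient group had the same floxed alleles and a Cre transgene (3 arrays). An effect of Cre itself cannot be told apart from that of the deletion. Each array was hybridised from 2 ng of total RNA after amplification. No label states that the 3 samples of a group were taken from different mice. The p-values may therefore rest on technical spread between samples.

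Values are log2 expression per probe set, and a difference is always RANKL-deficient minus control. Tnfsf11 measured 8.47 ± 0.26 (SD) over the 3 control arrays and 8.51 ± 0.15 (SD) over the 3 RANKL-deficient arrays. The position of its probe set relative to the floxed exons is not given in the sources used here, and the value is therefore no check of the genotype. Control array 1 stood apart, with the narrowest spread over genes (SD 1.86, the other arrays 1.93 to 2.01) and the lowest mean correlation across genes with the other arrays (0.960, the others 0.970 to 0.977). Of 12 ILC3 markers, 10 had a value, all 10 above the median gene.

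Promoter sequences of the kinase pair are shown because CDK4 and CDK6 are the shared partners of the D-type cyclins. They are the 250 bases before the gene start in RefSeq, assembly GRCm38.p6, both on the plus strand: Cdk4 at chr10:127063285-127063534 and Cdk6 at chr5:3343643-3343892. Capitals mark CACGTG, the E-box to which MYC and MAX bind.
Cdk4 promoter: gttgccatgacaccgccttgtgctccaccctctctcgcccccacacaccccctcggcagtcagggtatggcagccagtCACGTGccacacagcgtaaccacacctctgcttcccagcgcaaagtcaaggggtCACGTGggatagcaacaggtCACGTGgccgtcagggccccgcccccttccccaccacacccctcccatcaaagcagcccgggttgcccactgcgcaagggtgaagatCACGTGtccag
Cdk6 promoter: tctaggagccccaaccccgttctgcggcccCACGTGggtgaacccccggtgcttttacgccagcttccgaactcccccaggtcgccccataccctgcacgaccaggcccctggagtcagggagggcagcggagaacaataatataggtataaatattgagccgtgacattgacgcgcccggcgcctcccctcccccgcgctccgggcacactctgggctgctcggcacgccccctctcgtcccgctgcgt
The Cdk4 window held 4 matches, starting 172, 118, 98 and 11 bases before the gene start, and the Cdk6 window held 1, at 220 bases. Of all 32851 promoter windows of this length, 6.02% held at least 1 match and 7 windows held at least 4.

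Other motifs searched on both strands were the E2F sequences TTTCCCGC (0.895% of windows) and TTTGGCGC (0.417%), the STAT sequence TTCNNNGAA (7.02%), the FOXO sequence GTAAACA (3.17%), the CRE TGACGTCA (1.55%) and the AP-1 sequence TGANTCA (6.75%). RefSeq windows were matched for 7 of the 10 genes, 10 windows in all, with Ccnd1, Ccnd2 and Rb1 not among them. Beside the E-boxes, the search found 1 match, the FOXO sequence in 1 of the 2 Ccnd3 windows, starting 243 bases before the gene start. No motifs overlapped in these windows. A match describes letters in the window and shows no binding.

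Of the 3 cyclin genes, 1 separated the groups. Ccnd2 measured 9.17, 8.95 and 9.31 on control arrays 1 to 3, and 10.34, 10.21 and 10.07 on RANKL-deficient arrays 1 to 3. The lowest RANKL-deficient array lay 0.75 above the highest control array. The group means were 9.14 ± 0.18 and 10.20 ± 0.13 (SD, n = 3 each), a 2.08-fold difference with a 95% confidence interval of 1.64 to 2.65.

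By unadjusted p, Ccnd2 ranked 13 of 19938 genes, with an adjusted p of 0.245 (limma, log2 difference 1.06, SE 0.15). The exact permutation test (two-sided) returned p = 0.1, the smallest that 3 arrays against 3 allow. Over all genes, 0.00502% passed the adjusted threshold of 0.05, and 0 of the 9 measured members did. At an unadjusted p under 0.05 the count was 1 of 9, Ccnd2, where 8.15% of all genes were called. Groups that did not overlap were likewise found for 1 of 9, with 14.4% over all genes, so both counts are close to the background share. Ccnd2 differed by 0.96 to 1.14 when any 1 array was left out, and by 0.89 without control arrays 1 and 2 together. In bulk RNA, more cells that express a gene and more RNA per cell cannot be told apart.

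**Figure D1:**
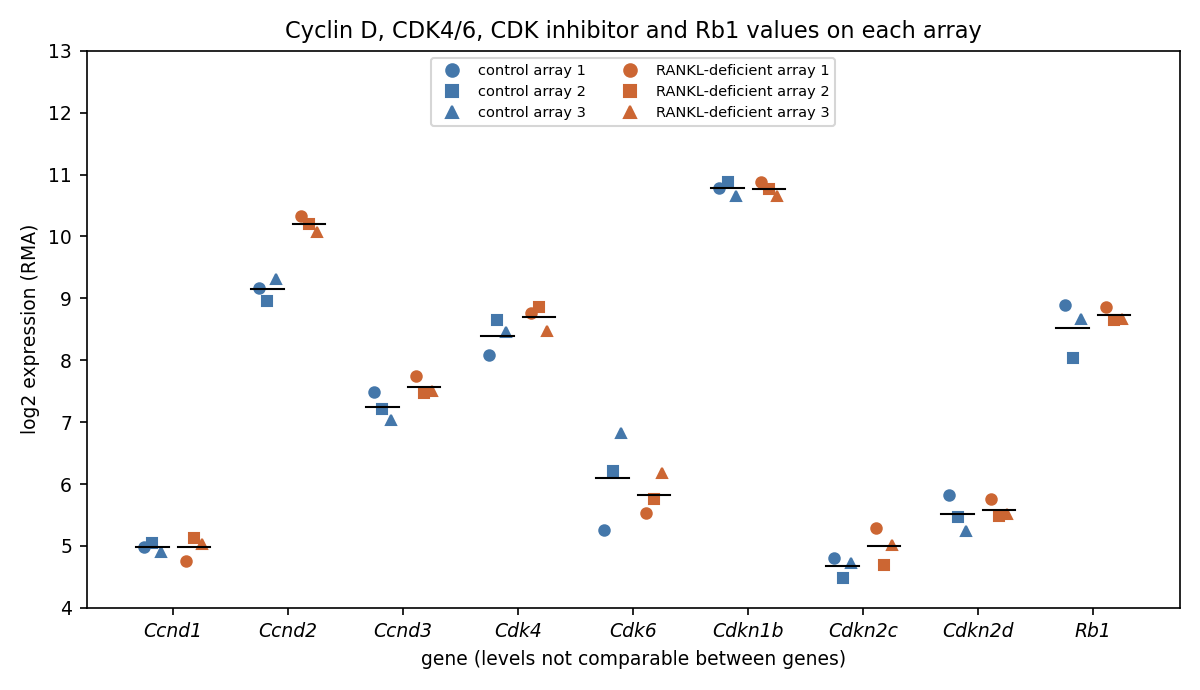
Log2 expression of the 9 measured genes on each of the 6 arrays (blue control, orange RANKL-deficient), with the array number shown by the symbol and group means by black lines. For Ccnd2 the groups are separate, while for the other 8 genes they overlap.

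Ccnd3, the cyclin D3 gene, measured 7.48, 7.22 and 7.04 on control arrays and 7.74, 7.47 and 7.50 on RANKL-deficient arrays. Control array 1 lay inside the RANKL-deficient range and the other control arrays below it. The difference was 0.32 (SE 0.16, 95% confidence interval −0.05 to 0.70, limma adjusted p = 0.644). Without control array 3 it was 0.22 and without control array 1 it was 0.44, and it was 0.53 without control arrays 1 and 2 together.

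Ccnd1, the cyclin D1 gene, measured 4.98, 5.05 and 4.90 on control arrays and 4.76, 5.13 and 5.04 on RANKL-deficient arrays. The RANKL-deficient arrays lay on both sides of the control arrays. Its difference was −0.0024 (95% confidence interval −0.34 to 0.33, limma adjusted p = 0.997), and the sign turned under 6 of 15 alternatives. Both group means lay below the median gene (5.12) and the files hold no measure of background, so a change in a transcript near background could be understated.

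The difference between the cyclins was tested within arrays by exact permutation. The 95% intervals come instead from a t distribution with pooled variance and are not adjusted over the 3 pairs. Such an interval can exclude 0 although the permutation p cannot go below 0.1. Ccnd2 minus Ccnd3 was 1.90 ± 0.33 on control arrays and 2.63 ± 0.09 on RANKL-deficient arrays (SD, n = 3 each), so that the groups differed by 0.74 with a 95% interval of 0.19 to 1.28. For Ccnd2 minus Ccnd1 the groups differed by 1.06, with an interval of 0.42 to 1.70. In both comparisons the groups did not overlap, and the exact two-sided permutation p was 0.1 in each (0.15 adjusted over the 3 pairs), which this design cannot go below. For Ccnd1 minus Ccnd3 they differed by −0.32, with an interval of −0.96 to 0.31 (exact permutation p = 0.3, adjusted 0.3). Both pairs with Ccnd1 carry the limit given for that gene, whose group means lay below the median gene.

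Neither kinase gene separated the groups. Cdk4 measured 8.09, 8.65 and 8.46 on control arrays and 8.77, 8.86 and 8.47 on RANKL-deficient arrays. All 3 RANKL-deficient arrays lay above 2 of the control arrays, and RANKL-deficient array 3 lay below control array 2. The kinase's difference was 0.30 (95% confidence interval −0.14 to 0.74, limma adjusted p = 0.698). It was 0.14 without control array 1, whose value was the lowest, and 0.42 without control array 2.

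Cdk6 measured 5.25, 6.21 and 6.82 on control arrays and 5.53, 5.76 and 6.17 on RANKL-deficient arrays. The control arrays held both its lowest and its highest value, a range of 1.57. Its control SD of 0.79 was larger than that of 96.6% of genes. The difference was −0.27 (95% confidence interval −1.18 to 0.64, limma adjusted p = 0.853). It was −0.69 without control array 1, 0.09 without control array 3 and −0.996 without control arrays 1 and 2 together. A difference of about the size seen for Ccnd2 thus lies inside the interval in the lower direction.

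The inhibitors were measured by 4 probe sets. Cdkn1b encodes p27, which restrains cyclin-CDK complexes in resting cells, and its 2 probe sets gave different results. Probe set 10542317, which has the higher mean and stands for the gene in the test, measured 10.78, 10.88 and 10.66 on control arrays and 10.87, 10.76 and 10.66 on RANKL-deficient arrays. The groups overlapped almost fully, with a difference of −0.012 (95% confidence interval −0.32 to 0.29, limma adjusted p = 0.985).

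Probe set 10542310 measured 8.90, 8.55 and 8.82 on control arrays and 9.37, 9.11 and 9.24 on RANKL-deficient arrays. Here all RANKL-deficient arrays lay above all control arrays, by a difference of 0.48 (95% confidence interval 0.13 to 0.84, limma adjusted p = 0.683 over all probe sets). Within arrays, 10542310 minus 10542317 was −2.02 ± 0.27 on control arrays and −1.52 ± 0.12 on RANKL-deficient arrays (SD, n = 3 each). That gap differed between the groups by 0.50 (exact two-sided permutation p = 0.1, the smallest possible), a comparison made after the values were seen. Among 777 genes with 2 probe sets, 15.2% had differences at least this far apart, and the median was 0.18. Which part of the Cdkn1b transcript each probe set covers is not given in the sources used here. With both averaged, the gene's difference was 0.24 (limma adjusted p = 0.649).

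**Figure D2:**
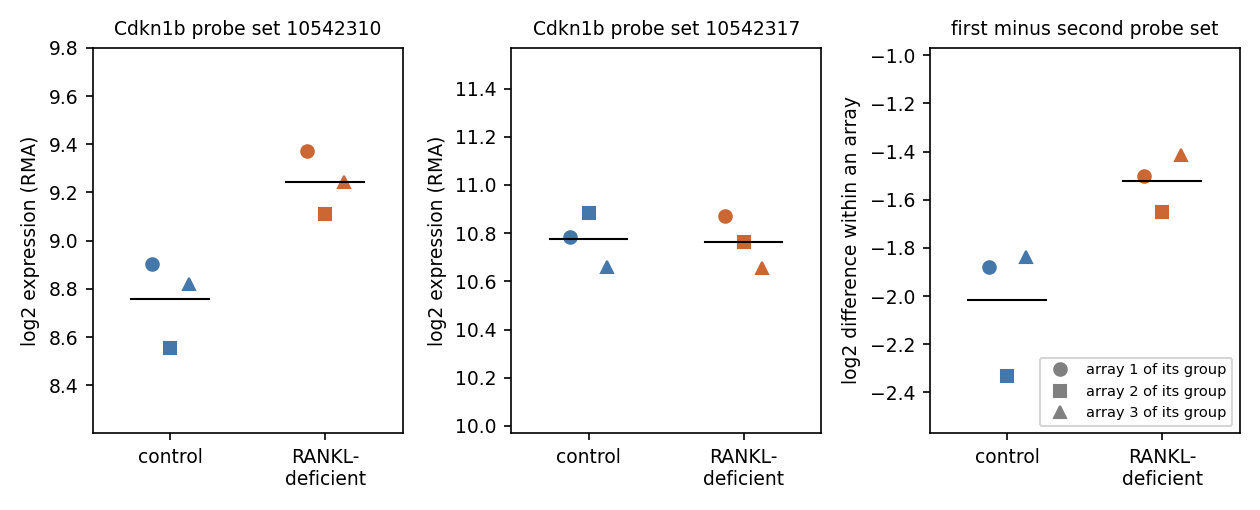
Log2 expression of the Cdkn1b probe sets on each array (left and middle) and the log2 difference between them within each array (right), all on axes of equal span, with group means as black lines. Probe set 10542310 and the within-array difference separate the groups, and probe set 10542317 does not.

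Cdkn2c, the p18 gene, measured 4.80, 4.48 and 4.73 on control arrays and 5.29, 4.70 and 5.02 on RANKL-deficient arrays. RANKL-deficient arrays 1 and 3 lay above all control arrays, and array 2 lay among them. The difference was 0.33 (95% confidence interval −0.10 to 0.76, limma adjusted p = 0.679), and it was 0.19 without RANKL-deficient array 1. Both means lay below the median gene, with the limit already given for Ccnd1.

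Cdkn2d, the p19 gene, measured 5.82, 5.46 and 5.25 on control arrays and 5.76, 5.48 and 5.51 on RANKL-deficient arrays. The RANKL-deficient values lay inside the control range. The difference was 0.07 (95% confidence interval −0.35 to 0.50, limma adjusted p = 0.917), and its sign turned without control array 3 (−0.057) or RANKL-deficient array 1 (−0.012). The INK4 genes outside the chosen set, Cdkn2a and Cdkn2b, differed by 0.10 and −0.30.

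Rb1, the retinoblastoma gene, measured 8.89, 8.03 and 8.66 on control arrays and 8.86, 8.65 and 8.67 on RANKL-deficient arrays. Control array 2 alone lay low, and the other 5 arrays lay between 8.65 and 8.89. The difference of 0.20 (95% confidence interval −0.34 to 0.74, limma adjusted p = 0.812) was −0.047 without control array 2. Rb1 is the 1 measured member on the chromosome of Tnfsf11, with 31 protein-coding genes between them in the RefSeq table, and both groups carry the floxed allele. Its relatives Rbl1 and Rbl2, the p107 and p130 genes, differed by 0.13 and 0.08.

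**Figure D3:**
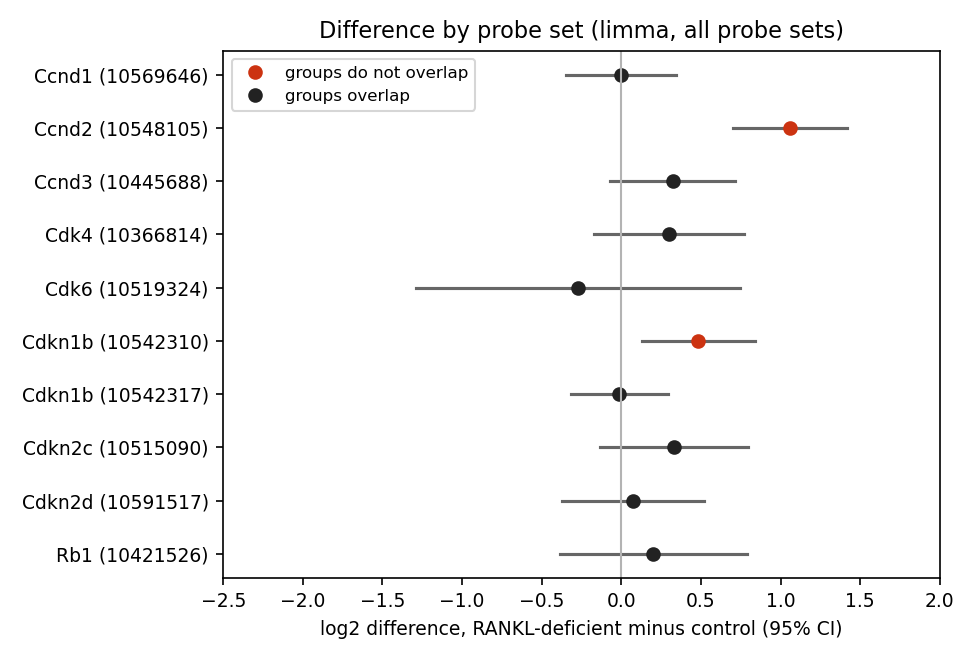
Log2 difference between RANKL-deficient and control arrays for each of the 10 probe sets, with 95% confidence intervals from limma over all probe sets; red points mark groups that do not overlap. Ccnd2 (1.06) and 1 of the Cdkn1b probe sets (0.48) have intervals above 0, and the other 8 intervals include 0.

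As a set, 6 of the 9 measured members had a higher mean in RANKL-deficient cells, with a median difference of 0.20. Over all genes 39.5% had a higher mean (median −0.054), and among genes above the median gene 54.7% did (median 0.03). The direction of Ccnd1, Cdk6, Cdkn1b, Cdkn2d and Rb1 turned under at least 1 alternative, whereas that of Ccnd2, Ccnd3, Cdk4 and Cdkn2c held in every alternative run.

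By direction, the other G1/S genes of the pathway were evenly divided. Of 26 measured, 13 had a higher and 13 a lower mean, with a median of 0.007, and 0 passed the adjusted threshold (limma). The largest differences were lower, in E2f5 (−1.20, and −0.45 without control array 2) and E2f4 (−0.80, and −0.21 without control array 1). In the higher direction the largest was 0.52, for E2f3. At an unadjusted p under 0.05 there were 1 higher and 1 lower, where 4.25% and 3.9% of all genes were called. Groups did not overlap for 0 genes in the higher direction and 2 in the lower, against 5.28% and 9.08% of all genes. Skp2, which targets p27 for degradation, measured 5.09 ± 0.29 on control arrays and 5.58 ± 0.26 on RANKL-deficient arrays (difference 0.49, SE 0.20). E2f6, a repressor of the E2F family, differed by −0.78 (SE 0.30), and Cdkn2b, the p15 gene, by −0.30 (SE 0.13). The cyclin E genes Ccne1 and Ccne2, which act after the D-type cyclins, differed by −0.25 and −0.23, and their partner Cdk2 by −0.019.

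Among E2F target genes of S phase, 16 of 19 had a higher mean, with a median of 0.28. None passed the adjusted threshold, while 6 were higher and 1 lower at an unadjusted p under 0.05 (limma), against 4.25% and 3.9% of all genes. Groups did not overlap for 6 genes in the higher direction, against 5.28% of all genes, and for 1 in the lower (9.08%). Of the 19 genes, 15 lay above the median gene. There, 54.7% of genes had a higher mean and 9.12% had separate groups in the higher direction. Mcm4 and Mcm3, subunits of the replicative helicase, differed by 0.83 (SE 0.18) and 0.87 (SE 0.21), with groups separate by 0.41 and 0.45. Margins were smaller for Pcna (0.13), Rrm1 (0.065), Mcm5 (0.029) and Mcm2 (0.0097). Tk1, the thymidine kinase of the salvage pathway, differed by −0.43 (SE 0.15), with all RANKL-deficient arrays (7.17 to 7.42) below all control arrays (7.55 to 7.95). The mean of the list on each array ran from 5.98 to 6.28 in control, lowest on control array 1, and from 6.40 to 6.56 in RANKL-deficient cells. Without control arrays 1 and 2 together, 14 of 19 were higher, with a median of 0.23.

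The G2/M list was divided, with 9 of 14 genes higher and a median of 0.046. None passed the adjusted threshold, and at an unadjusted p under 0.05 there were 3 higher and 0 lower (limma), where 4.25% and 3.9% of all genes were called. These were Top2a, a topoisomerase of dividing cells (difference 1.10, SE 0.27), Birc5, which encodes survivin (0.37, SE 0.15), and the proliferation marker Mki67 (0.35, SE 0.14). The groups did not overlap for any of the 3, where 5.28% of all genes had separate groups in the higher direction. Mki67 measured 4.24 ± 0.19 on control arrays and 4.58 ± 0.06 on RANKL-deficient arrays, both below the median gene. The mitotic kinases Plk1, Aurka and Aurkb differed by 0.043, 0.050 and −0.086.

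Genes that act on the D-type cyclin and inhibitor genes gave 9 of 15 higher, with a median of 0.060 and 0 past the adjusted threshold. At an unadjusted p under 0.05 there were 2 higher and 0 lower (limma), with background shares of 4.25% and 3.9%. Groups were separate in the higher direction for 2 of the 15, against 5.28% of all genes. The share was 9.12% among genes above the median gene, where 13 of the 15 lay. Myc, whose product activates Cdk4 and Ccnd2, measured 5.54, 6.71 and 5.94 on control arrays and 6.76, 7.30 and 6.75 on RANKL-deficient arrays. Its groups did not overlap, by a margin of 0.04 (difference 0.87, SE 0.31, limma adjusted p = 0.582). Fos, a subunit of AP-1, differed by 0.52 (SE 0.12, limma adjusted p = 0.423), and its groups were separate by the larger margin of 0.35. Bmi1, a Polycomb repressor of the INK4 locus, differed by −0.39 (SE 0.24). Stat5a and Stat5b, which relay IL-7 and IL-2 signals to Ccnd2, differed by 0.060 and −0.11. Foxo1 and Foxo3, activators of Cdkn1b, differed by −0.20 and −0.061.

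The p53 target list, to which Cdkn1a belongs by function, had 10 of 14 genes higher, with a median of 0.038. None passed the adjusted threshold, and at an unadjusted p under 0.05 there were 0 higher and 1 lower (limma), against 4.25% and 3.9% over all genes. Groups did not overlap for 0 genes in the higher direction and 1 in the lower, where the shares over all genes were 5.28% and 9.08%. Gadd45a, a stress gene, measured 8.67 ± 0.21 on control arrays and 8.20 ± 0.16 on RANKL-deficient arrays, a difference of −0.47 (SE 0.16). Btg2 and Trp53inp1, both antiproliferative, differed by 0.39 (SE 0.18) and 0.50 (SE 0.28). Mdm2, the feedback inhibitor of p53, differed by 0.085.

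The median of the E2F target list lay between 0.22 and 0.33 in each of the 15 alternatives in which the lists were recomputed. Those of the other 4 lists turned sign in at least 1, the regulators to −0.029 after a second quantile normalization, the p53 targets to −0.0023 without control arrays 1 and 2, the other G1/S genes to −0.060 without control array 3 and the G2/M genes to −0.0099 without RANKL-deficient array 1.

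**Figure D4:**
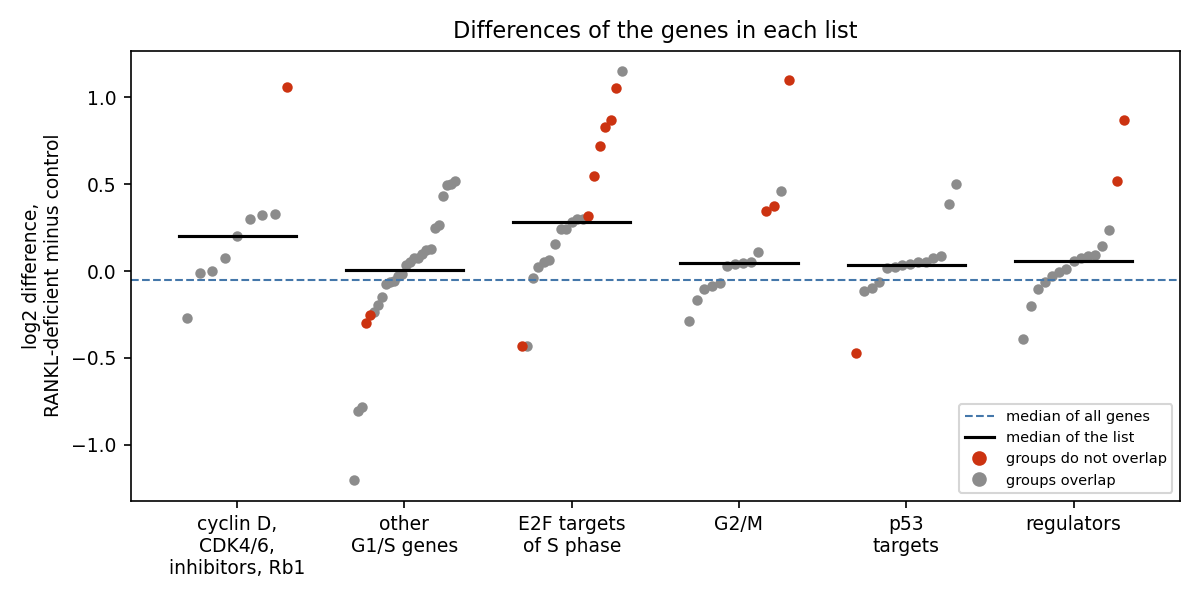
Log2 differences (RANKL-deficient minus control) of the genes in each list, sorted within the list, with list medians as black lines and the median of all genes (−0.054) as a dashed line; red points mark groups that do not overlap. Medians run from 0.007 for the other G1/S genes to 0.28 for the E2F targets.

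The genes most similar to Ccnd2 over the 6 arrays were found by the root mean square difference of values centred on each gene's mean, among 9962 genes above the median gene. They were Sdf2l1, an endoplasmic reticulum protein (0.054 log2 units), Kti12, a factor in tRNA modification (0.10), Ackr3, a scavenging receptor for CXCL12 (0.11), Rasgef1b, an exchange factor for Ras-like GTPases (0.12), and Eps8, a signalling adaptor (0.13). Sdf2l1 measured 6.12 ± 0.15 on control arrays and 7.10 ± 0.14 on RANKL-deficient arrays. All 5 separated the groups as Ccnd2 did, which the measure favours, and 0 of the 5 passed the adjusted threshold (limma adjusted p from 0.202 to 0.327).

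**Figure D5:**
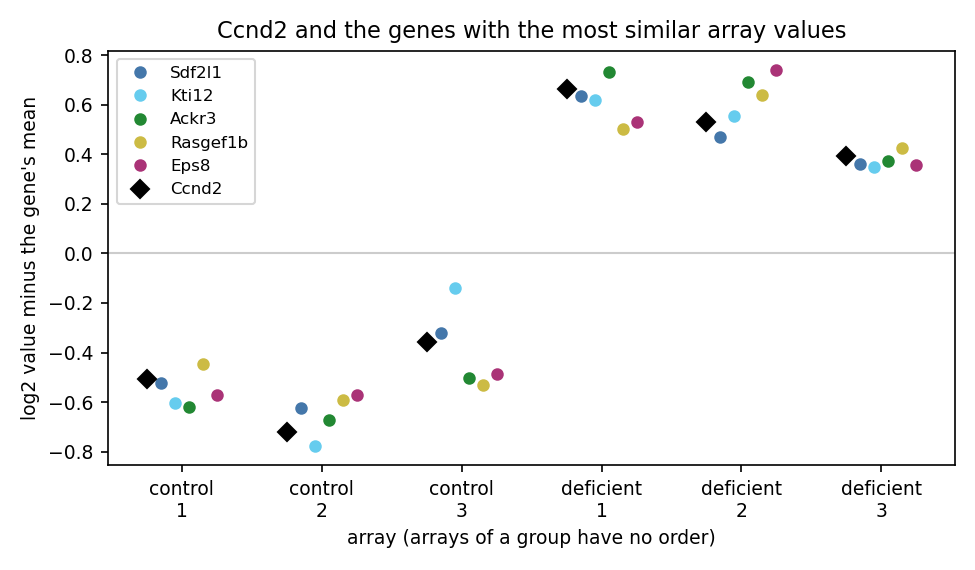
Log2 values of Ccnd2 (black diamonds) and the 5 genes most similar to it on each array, each minus the gene's own mean over the 6 arrays. All 6 genes lie below 0 on the control arrays and above 0 on the RANKL-deficient arrays.

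Markers of other cells were compared beside these results. The summed level of the 10 stromal and endothelial markers was 9.80 to 10.06 on control arrays and 9.53 to 9.64 on RANKL-deficient arrays (log2), with 9 of 10 genes lower. For 8 granulocyte and mast cell markers it was 6.98 to 7.11 and 6.81 to 6.94, with all 8 lower. For both lists the groups did not overlap. The background leaned the same way: 39.5% of all genes, and 24.4% of those at or below the median gene, had a higher mean in RANKL-deficient cells. Of the granulocyte and mast cell markers, 1 of 8 lay above the median gene, and of the stromal and endothelial markers 6 of 10. Ranges overlapped for T cells (8.27 to 9.08 and 8.14 to 8.41), B and plasma cells (9.24 to 9.39 and 9.10 to 9.32), and macrophages and monocytes (9.17 to 9.70 and 8.97 to 9.58). They also overlapped for dendritic cells (8.06 to 8.42 and 8.30 to 8.58), epithelial cells (8.87 to 9.37 and 8.32 to 9.28) and the ILC3 markers (13.68 to 13.85 and 13.82 to 13.88). Among the lists with overlapping ranges, lower means were found for 8 of 10 T cell, 7 of 9 B and plasma cell, 4 of 10 macrophage and monocyte, 5 of 8 dendritic cell, 10 of 10 epithelial and 3 of 10 ILC3 markers. Of these markers, 0 passed the adjusted threshold (limma). An unadjusted p under 0.05 was reached by 2 in all, both lower, where 3.9% of all genes were called lower. These were Cd3g of T cells (difference −1.91, SE 0.43, groups not overlapping) and Adgre1 of macrophages (−0.54, SE 0.19, groups overlapping). The other CD3 genes, Cd3e and Cd3d, differed by −0.70 and 0.26, with overlapping groups. Array values have no true zero, so no marker can be called absent, and the part of such cells in the Ccnd2 difference was not tested.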

How the data were processed

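Affymetrix mouse gene arrays were run on 6 samples, 3 per group, grouped by title. The deposited log2 values of 35556 probe sets were computed by the authors: the submitters' processing notes name RMA and Affymetrix Expression Console. The sources used here give neither versions nor settings nor genome build. RMA makes the distributions of the arrays alike; over genes their medians here were 5.07 to 5.15 and their SDs 1.86 to 2.01, and a shift common to all genes may be hidden. The number of arrays limits the precision.

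Probe sets were named by the platform annotation, with symbols updated by Entrez identifier against RefSeq (GRCm38.p6). Probe sets without exactly 1 symbol (1621 with several, 12146 with none) were not tested. Of several probe sets of a gene, the one with the highest mean was used. The test was limma's (version 3.58.1, R 4.3.3; lmFit and eBayes, two-sided, Benjamini-Hochberg over 19938 genes, threshold 0.05), and single values by exact permutation. The procedure was run on simulated data with known differences added, where the check required only that their median size be recovered. The members and lists were chosen with earlier results of these data known. All members were named, the 3 genes of each list with the smallest p, and the 5 most similar to Ccnd2; further list genes were named after their values were seen. Alternatives covered normalization, left-out arrays, weights, filter and probe set rule. Some planned items are not reported here.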

Additional observations from a re-analysis of the deposited data

How the results depend on the processing

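With 3 arrays a group, most member differences lie inside wide intervals. Over 16 alternatives, 142 member differences were recomputed: 127 kept their direction, 15 turned and 0 passed the adjusted threshold. Ccnd2 stayed between 0.89 and 1.14 (adjusted p from 0.133 to 0.702). The sign turned for Ccnd1 with median centring (0.049), second quantile normalization (0.054), cyclic loess (0.080) and without control arrays 1 and 2 (0.077). Cdkn1b turned with median centring (0.039), without control arrays 1 and 2 (0.10) and with its probe sets averaged (0.24). With 1 array left out, ranges were −0.080 to 0.11 for Ccnd1, −0.070 to 0.043 for Cdkn1b, −0.69 to 0.090 for Cdk6, −0.057 to 0.23 for Cdkn2d and −0.047 to 0.38 for Rb1. Beside Ccnd2, an unadjusted p under 0.05 was reached by Ccnd3 (0.0247) and Cdk6 (0.0362) without control array 1, and by both (0.0344 and 0.0172) without control arrays 1 and 2, where the lone control array is assumed to vary like the other group. Cdkn2c reached it without RANKL-deficient array 2 (0.0371), and Ccnd3 with median centring (0.0485) and array weights (0.0484). The cause was not tested.

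Genes past the adjusted threshold numbered 1 in the reported comparison, 0 to 1 with 1 array left out, 0 without control arrays 1 and 2, 0 with all probe sets tested and 2 with the trend and robust options. With the replicate number as a block the count was 0, Ccnd2 kept 1.06 (adjusted p = 0.456), and no member's call changed. Deviations of same-numbered arrays correlated at −0.023, 0.050 and 0.027 across genes, and not every array correlated best with its own number, so the numbers were not treated as pairs. Among genes above the median gene, 3 G2/M genes of the 5 left were higher, since fewer were tested, and Ccnd1 and Cdkn2c gave no value.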

Other observations

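E2f4 and E2f5, which act mainly as repressors, and E2f3, mainly an activator, were singled out after their values were seen, and leaving out each array in turn for them was also chosen then. E2f5 measured 5.59, 7.84 and 5.58 on control arrays and 4.63, 5.09 and 5.67 on RANKL-deficient arrays, a difference of −1.20 (SE 0.62, limma adjusted p = 0.651), with control array 2 far above the other control arrays. Without control array 2 the difference was −0.45 (SE 0.30). E2f4 measured 9.42, 7.93 and 7.37 on control arrays and 7.91, 7.47 and 6.93 on RANKL-deficient arrays, a difference of −0.80 (SE 0.52, limma adjusted p = 0.705), with control array 1 highest. Without control array 1 it was −0.21 (SE 0.32), and without control array 3 it was −1.24 (SE 0.50). E2f3 measured 6.76 on control arrays and 7.28 on RANKL-deficient arrays, a difference of 0.52 (SE 0.23), which was 0.29 without RANKL-deficient array 2. None of the 3 passed the adjusted threshold, with all arrays or with any 1 left out (limma).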
